A study of Mus musculus with 36 samples.

Results

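The data described here are 8 liver RNA libraries, 4 from heterozygous W/F and 4 from homozygous W/W mice, out of 36 in the series. All 8 come from mice on a diet that promotes metabolic dysfunction-associated steatohepatitis (MASH) and received T0901317, a synthetic agonist of the liver X receptors. They were chosen by genotype, diet and compound, and all 16638 genes with at least 1 TPM (transcripts of a gene per 1000000 transcripts) in at least 4 of the 36 libraries were tested. W/W mice carry the normal tryptophan 441 of liver X receptor alpha (LXRalpha), and in W/F mice 1 allele was changed to phenylalanine by CRISPR, in every cell of the body. The labels give the receptor the symbol Nr1h2, whereas Nr1h3 is the usual symbol of LXRalpha. Mice were males of 11 to 12 weeks, fed diet Teklad TD.96121 for 4 weeks and gavaged each day for the last 2 weeks with 10 mg/kg T0901317 or with vehicle. Beside them stand W/F and W/W on the same diet with vehicle, W/F and W/W of a separate cohort on chow, and homozygous F/F mice on the MASH diet with T0901317. Each of these groups also held 4 libraries.

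LXRalpha is a nuclear receptor that binds oxidised forms of cholesterol and works as a partner of the retinoid X receptor. In the liver it is known to raise the genes of fatty acid synthesis, partly through the transcription factor SREBP-1c encoded by Srebf1, and the transporters that move cholesterol into bile. Cholesterol synthesis is governed mainly by a second factor, SREBP-2, encoded by Srebf2, and fatty acid oxidation by the nuclear receptor PPAR-alpha. The comparison asks which expression differences between W/F and W/W livers are present when the agonist is given.

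With T0901317, all 25 genes of cholesterol synthesis and uptake tested and 18 of 26 genes of fatty acid and triglyceride synthesis were called lower in W/F than in W/W livers, and fewer genes were called higher than lower over the whole table. At an adjusted p under 0.05 (limma with Benjamini-Hochberg adjustment, on log2(TPM + 1)), 1644 genes, or 9.88% of those tested, differed. Of these 607 were higher in W/F (3.65%) and 1037 lower (6.23%), and 330 genes (1.98%) also differed at least 2-fold, 71 upward and 259 downward. The median log2 difference over all genes was 0. The 4 W/F values lay wholly outside the range of the 4 W/W values for 1438 of the 1644 genes. These genes were called on the same libraries, so this count describes the called genes and is not separate support. The split between directions depended on scaling: with reads recovered from the TPM and tested by voom, 58.1% of the 2188 genes called were higher, against 36.9% here, and 36.5% of 2164 once those libraries were rescaled to the median gene. Without W/F replicate 1, a share of 49.3% of the calls were upward.

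The libraries were of similar depth, with about 22629600 to 25935000 recovered reads in W/F and 22796800 to 34326200 in W/W. The 100 most abundant genes held 54.3% ± 2.86 of TPM in W/F and 53.9% ± 0.448 in W/W (SD, n = 4 each, exact two-sided permutation test, p = 0.83, where 0.0286 is the smallest p possible). Of the defining hepatocyte genes, albumin (Alb) lay at 25073 to 43685 TPM in W/F and 46204 to 57843 in W/W, and Hnf4a, a transcription factor of hepatocyte identity, at 236.5 to 373.2 and 220.1 to 274.3 TPM. Nr1h3 itself was at 82.0, 105.6, 104.0 and 92.5 TPM in W/F and 87.8, 82.9, 90.7 and 85.9 TPM in W/W (log2 difference 0.14 ± 0.10 SE, limma adjusted p = 0.485). A transcript level cannot show which allele it comes from, so this value does not check the genotype labels. W/F replicate 2 stood apart. In it 1290 genes lay more than 2-fold from the median of the other 3 W/F libraries, against 379 to 419 genes in each of those and 331 to 503 in the W/W libraries. Without it 1538 genes (9.24%) were called, 1305 of them among the 1644. Results that rest on it are given with and without it below.

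Cholesterol synthesis was the list with the most uniform difference. All 25 tested genes of cholesterol synthesis and uptake were called lower in W/F, with a median log2 difference of -1.91, where 6.23% of all genes were called lower. All 25 also passed without W/F replicate 2, and 24 of 25 after rescaling, the exception being Ebp. Fdps, the farnesyl diphosphate synthase (chr3:89093588-89101959, GRCm38), was at 137.7, 146.2, 127.1 and 100.2 TPM in W/W and 8.28, 6.32, 6.61 and 10.9 TPM in W/F. No W/F value came near a W/W value, and the log2 difference was -3.85 ± 0.22 (SE, adjusted p = 1.15e-13). A stretch of 26.2% of the Fdps exon sequence also occurs in other annotated genes. Sqle, the squalene epoxidase (chr15:59315077-59331192), was at 35.4, 30.9, 30.7 and 27.8 TPM in W/W and 1.52, 1.68, 1.52 and 2.02 in W/F. The 4 W/F values of Sqle spanned less than 1 TPM, and its log2 difference was -3.58 ± 0.17 (adjusted p = 1.39e-15). Nsdhl, a sterol dehydrogenase of the late pathway (chrX:72918557-72958514), was at 64.4, 50.6, 55.3 and 53.8 TPM in W/W and 7.78, 7.24, 6.15 and 7.63 TPM in W/F. Its log2 difference was -2.80 ± 0.15 (adjusted p = 3.23e-14). Acat2, which forms acetoacetyl-CoA, was at 138.4 TPM in W/W and 30.3 TPM in W/F on average, with a log2 difference of -2.15 ± 0.14, and shares 39.1% of its exon sequence with other genes.

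Genes at both ends of the pathway and its regulators moved in the same direction, by unequal amounts. Hmgcs1, an early synthase of the pathway, averaged 180.2 and 42.1 TPM, with a log2 difference of -2.08. Srebf2 averaged 22.8 and 13.0 TPM, with a log2 difference of -0.77. Ebp, a sterol isomerase, differed least, at 156.7 TPM in W/W and 127.2 TPM in W/F. These genes were chosen as textbook steps of the pathway after the main values had been seen.

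The promoters of these genes are shown because the whole list moved together. Of the 25 members, 17 had a promoter in the RefSeq table (GRCm38.p6), and the 250 bases before the start were searched on both strands. The CCAAT box, the letters CCAAT, occurred in 16 of the 17, against 39.9% of the 10846 tested genes with a promoter. The GC box, GGGCGG, was in 16 of 17 against 60.2%. Lists with 0 or 1 member called also held both boxes often: CCAAT was in 10 of 13 circadian clock and 9 of 11 cell cycle promoters, and GGGCGG in 12 of 13 and 9 of 11. The sterol regulatory element in the form TCACNCCAC was in 1 of 17, in Hmgcs1, against 1.36%, and in 3.44% of the 756 promoters of genes called lower and 1.11% of the 449 of genes called higher. Its looser form CACNCCA was in 5 of 17, or 29.4%, against 18.4%. Some of these windows follow, 5′ to 3′, with CCAAT or its complement ATTGG in capitals: Mvd, Idi1 and Nsdhl, the members with the largest falls among those in the table, and Hmgcs1, the 1 with the sterol element. Pnpla3, the gene of fatty acid metabolism with the largest fall, is added for comparison.
Mvd, chr8:122443423-122443672, minus strand: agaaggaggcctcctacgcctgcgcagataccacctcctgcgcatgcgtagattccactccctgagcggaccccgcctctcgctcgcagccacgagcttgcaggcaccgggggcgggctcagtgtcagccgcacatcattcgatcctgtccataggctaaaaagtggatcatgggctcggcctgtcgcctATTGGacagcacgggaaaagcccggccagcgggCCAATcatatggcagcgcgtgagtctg
Idi1, chr13:8885356-8885605, plus strand: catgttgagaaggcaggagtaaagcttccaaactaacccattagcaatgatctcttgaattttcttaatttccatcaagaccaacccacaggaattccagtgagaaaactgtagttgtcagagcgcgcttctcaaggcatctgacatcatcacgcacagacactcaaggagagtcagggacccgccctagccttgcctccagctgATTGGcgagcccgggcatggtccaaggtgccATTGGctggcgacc
Nsdhl, chrX:72918271-72918520, plus strand: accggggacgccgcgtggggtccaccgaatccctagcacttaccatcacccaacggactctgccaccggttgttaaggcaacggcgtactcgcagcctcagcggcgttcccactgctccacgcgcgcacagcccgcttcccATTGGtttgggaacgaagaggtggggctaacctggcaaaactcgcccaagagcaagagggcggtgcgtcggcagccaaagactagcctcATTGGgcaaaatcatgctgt
Hmgcs1, chr13:119690101-119690350, plus strand: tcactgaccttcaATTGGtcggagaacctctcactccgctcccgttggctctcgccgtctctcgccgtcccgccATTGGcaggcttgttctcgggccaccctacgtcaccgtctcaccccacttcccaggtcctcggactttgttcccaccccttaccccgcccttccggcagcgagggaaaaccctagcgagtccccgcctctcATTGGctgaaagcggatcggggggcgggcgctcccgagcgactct
Pnpla3, chr15:84167566-84167815, plus strand: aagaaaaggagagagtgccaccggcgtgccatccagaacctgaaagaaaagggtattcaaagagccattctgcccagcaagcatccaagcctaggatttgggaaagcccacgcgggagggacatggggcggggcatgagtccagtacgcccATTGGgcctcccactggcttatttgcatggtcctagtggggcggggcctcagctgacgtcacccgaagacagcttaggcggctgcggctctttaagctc
Mvd, Idi1 and Nsdhl hold 2 such boxes each, Hmgcs1 3 and Pnpla3 1. CCAAT boxes were about as frequent among all genes called lower (46.0% of 756) as among those called higher (44.8% of 449). The DR4 repeat, the usual LXR element, was searched for in a strict form that fixes most letters of its repeated unit. That form was in 0 of the 13 LXR target promoters in the table, against 0.581% of tested genes. Other forms of the repeat were not searched for, so the 0 does not show that these promoters lack the element.

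Fatty acid and triglyceride synthesis fell in 18 of 26 genes and rose in 0, with a median log2 difference of -1.72, where 6.23% of all genes were called lower and 3.65% higher. Scd1, the stearoyl-CoA desaturase (chr19:44394455-44407879), was at 22177, 22058, 21512 and 21335 TPM in W/W and 2253, 1810, 1704 and 1834 TPM in W/F. This single gene held 2.18% ± 0.0410 of all TPM in W/W and 0.190% ± 0.0242 in W/F (SD, n = 4 each), and its log2 difference was -3.53 ± 0.30 (adjusted p = 2.67e-10). Fasn, the fatty acid synthase (chr11:120805846-120824547), was at 944.2, 1020.5, 774.9 and 624.5 TPM in W/W and 94.7, 54.0, 53.5 and 59.3 TPM in W/F. W/F replicate 1 was the highest of its group, still far below W/W, and the log2 difference was -3.68 ± 0.41 (adjusted p = 1.11e-07). Pnpla3, a lipid droplet hydrolase whose human counterpart carries a well-known risk variant for fatty liver (chr15:84167837-84187236), was at 97.7, 66.6, 76.2 and 62.8 TPM in W/W. It was at 2.38, 1.38, 1.42 and 2.79 TPM in W/F, a log2 difference of -4.69 ± 0.33 (adjusted p = 9.21e-12). The microRNA gene Mir6392 lies inside Pnpla3 on the same strand, so their reads cannot be told apart, and Mir6392 had 147 recovered reads in W/W and 2 in W/F. Acacb and Acaca, the acetyl-CoA carboxylases, averaged 94.9 and 51.4 TPM in W/W against 4.69 and 6.34 TPM in W/F, and 30.4% of the Acaca sequence is shared with other genes. Acss2, an acetyl-CoA synthetase, averaged 122.4 and 14.6 TPM.

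Not every gene of the list was called lower, though 24 of 26 had a lower estimate. The regulator genes Srebf1 and Mlxipl differed less than Scd1, Fasn and Pnpla3. Thrsp, also of this list, averaged 2240 TPM in W/W and 811 TPM in W/F without overlap. It did not pass (log2 difference -1.57, limma adjusted p = 0.147). Srebf1 (chr11:60199089-60222581) was at 634.5, 662.0, 710.1 and 693.7 TPM in W/W and 469.5, 341.0, 360.3 and 412.8 TPM in W/F. Its log2 difference was -0.78 ± 0.22 (limma adjusted p = 0.0170, and adjusted p = 0.0530 without W/F replicate 2). TPM here sums the transcripts of Srebf1, so SREBP-1a and SREBP-1c are not separated. Mlxipl, which encodes the glucose-responsive factor ChREBP, averaged 299.6 and 221.5 TPM (adjusted p = 0.0904). Dgat2, the last enzyme of triglyceride formation, averaged 395.7 and 440.5 TPM and did not pass (adjusted p = 0.552).

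**Figure D1:**
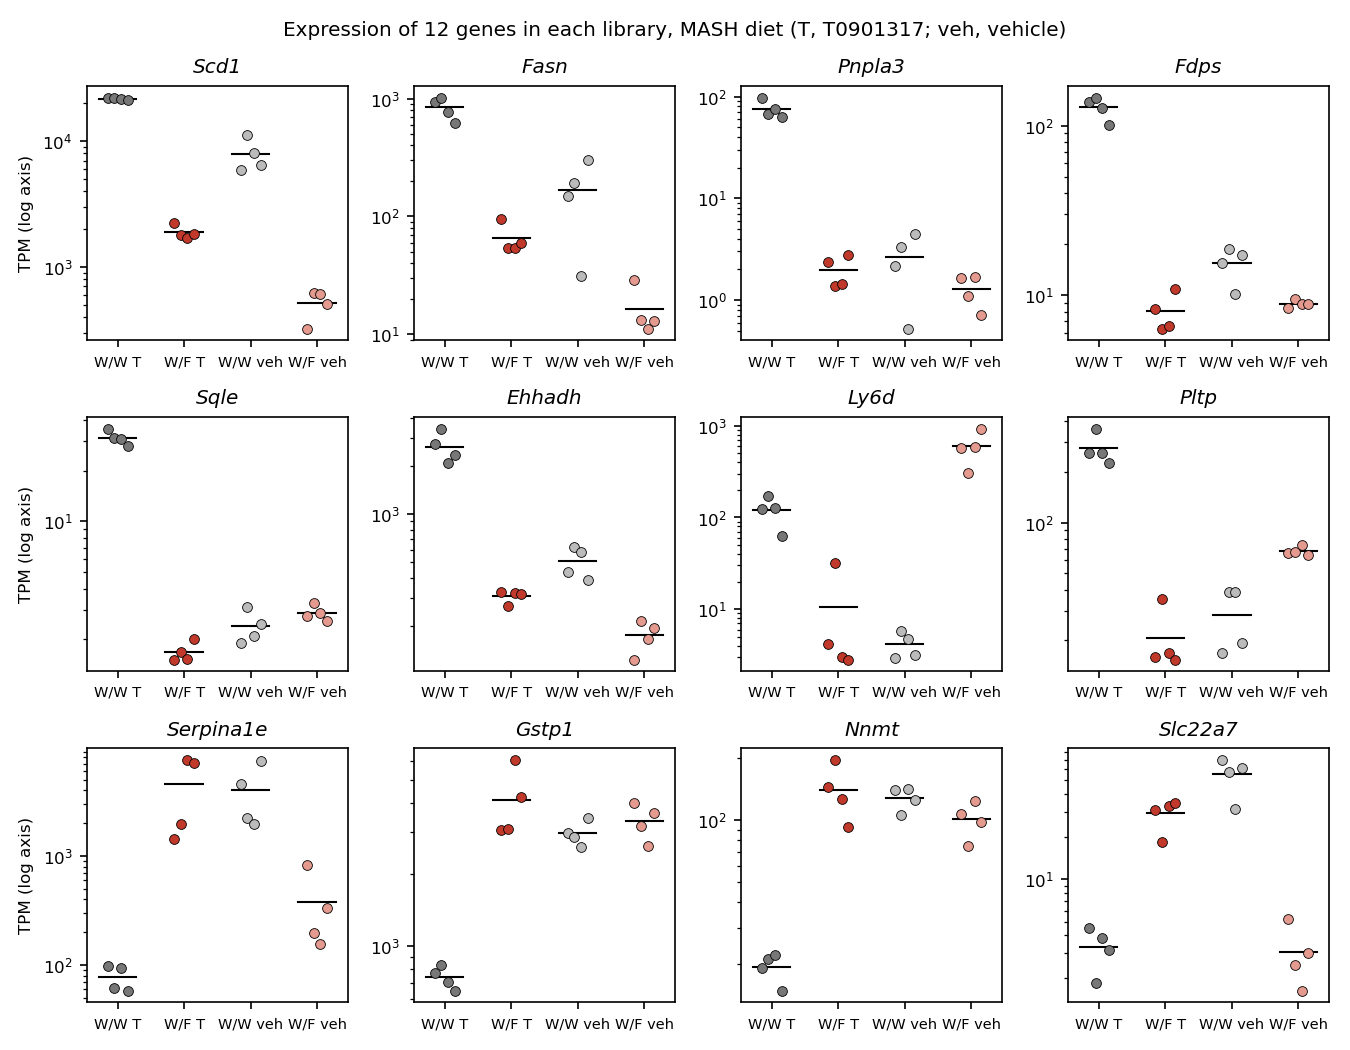
TPM of 12 genes on log axes in each of 16 libraries, with 4 libraries a group and a line at each mean; T is T0901317 and veh vehicle. Scd1, Fasn, Pnpla3, Fdps, Sqle, Ehhadh, Ly6d and Pltp lie lower in W/F than W/W with T0901317 with no overlap, and Serpina1e, Gstp1, Nnmt and Slc22a7 lie higher.

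**Figure D2:**
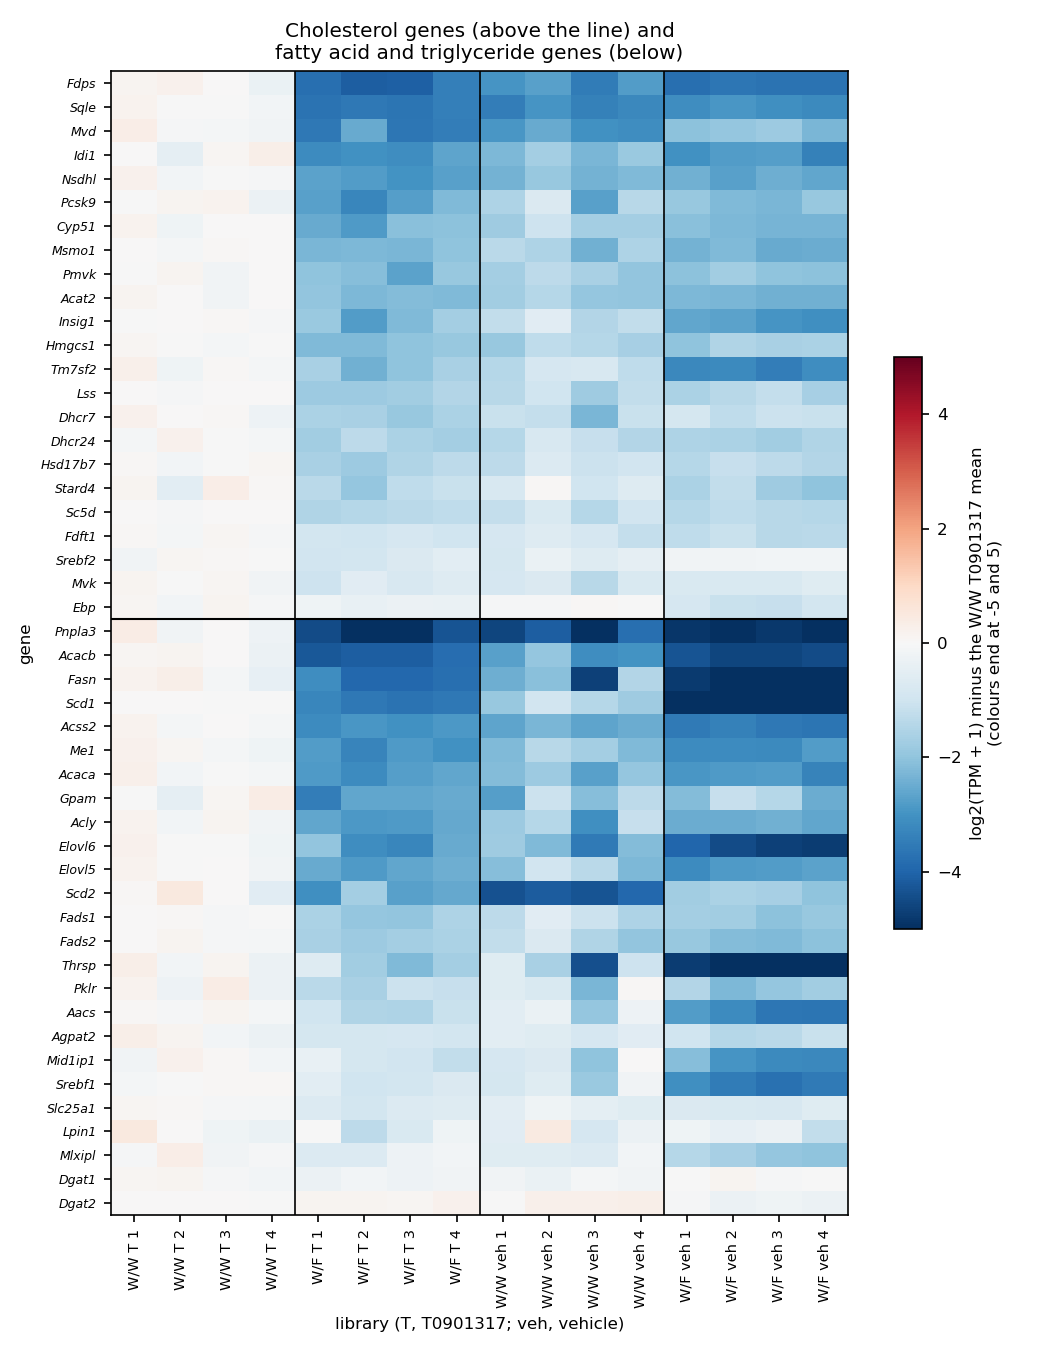
log2(TPM + 1) minus the mean of the W/W T0901317 mice for each library (columns) and each gene (rows) shown of the cholesterol list, above the line, and the fatty acid and triglyceride list, below; colours end at -5 and 5. The 4 W/F T0901317 columns are blue for every cholesterol gene shown, from -3.85 for Fdps to -0.30 for Ebp on average.

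The direct targets of LXR split into a group that fell and a group that did not pass. Of 20 LXR target genes, 11 were called lower and 0 higher, with a median log2 difference of -0.76, against the same 6.23% and 3.65% of all genes. Of the 11, 7 belong to fatty acid metabolism: Scd1, Scd2, Fasn, Acaca, Pnpla3 and Lpl, and Srebf1, which encodes a regulator of it. All of these except Lpl also belong to the fatty acid and triglyceride list, so the counts of the 2 lists are not separate results. Pltp, the phospholipid transfer protein (chr2:164839518-164857711), was at 259, 363, 258 and 227 TPM in W/W and 15.9, 35.0, 16.8 and 15.3 TPM in W/F. The highest W/F value of Pltp was that of replicate 2, and the log2 difference was -3.74 ± 0.37 (adjusted p = 7.90e-09), or -4.01 without that library. Lpcat3, which remodels membrane phospholipids, averaged 197.4 and 115.3 TPM, with a log2 difference of -0.77 ± 0.14 (adjusted p = 0.000260). The cholesterol transporters showed smaller differences. Abcg5, a subunit of the sterol exporter into bile, was at 319, 448, 344 and 409 TPM in W/W and 181, 226, 226 and 270 TPM in W/F. Its log2 difference was -0.75 ± 0.23 (adjusted p = 0.0371, and 0.0621 without W/F replicate 2). Its partner Abcg8 averaged 259.7 and 180.1 TPM and did not pass (log2 difference -0.55 ± 0.27, adjusted p = 0.239). Abca1, the exporter to apolipoprotein A-I, was at 48.3 to 55.8 TPM in W/W and 35.8 to 47.6 in W/F (log2 difference -0.31 ± 0.15, adjusted p = 0.222). Abcg1, Mylip, which encodes a ubiquitin ligase, and Cyp7a1, the rate-limiting enzyme of bile acid synthesis, did not pass, with log2 differences of -0.26, 0.11 and -0.10. For Abcg1 the value without W/F replicate 2 was -0.61 (adjusted p = 0.0438). None of 14 genes of LXR, RXR and their cofactors was called.

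Genes activated by PPAR-alpha were lower as well, in 17 of 28 cases with 0 higher and a median of -0.71, against 6.23% of all genes called lower. Ehhadh, a peroxisomal enzyme of fatty acid oxidation (chr16:21761287-21787807), was at 2723, 3420, 2073 and 2327 TPM in W/W and 324, 268, 320 and 316 TPM in W/F. The groups were far apart, with a log2 difference of -3.08 ± 0.20 (adjusted p = 7.25e-13). Cyp4a14, a fatty acid hydroxylase, was at 1340, 2165, 1408 and 1556 TPM in W/W and 231.7, 77.9, 89.5 and 63.4 TPM in W/F. Plin2, a lipid droplet coat protein, averaged 752.1 and 207.0 TPM. Cpt1a, the entry step of mitochondrial oxidation, averaged 271.5 and 197.6 TPM, a log2 difference of -0.45 (adjusted p = 0.0407), and the call was lost when 1 library was left out (largest adjusted p = 0.127).

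**Figure D3:**
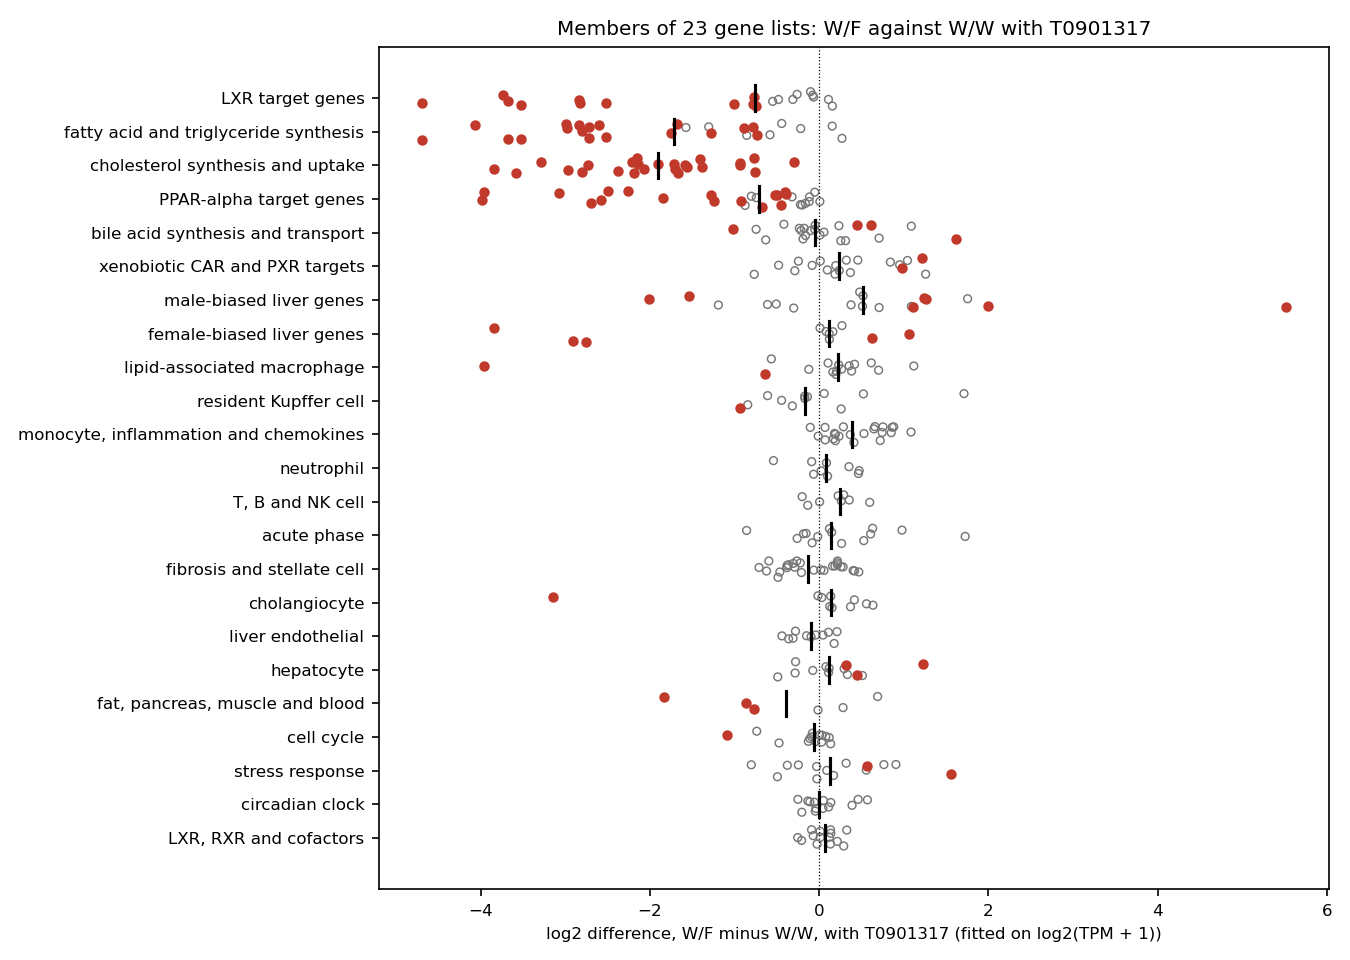
log2 difference, W/F minus W/W with T0901317, of each tested member (points) of 23 gene lists (rows); filled points passed an adjusted p of 0.05 and the bars are list medians. The cholesterol, fatty acid, LXR and PPAR-alpha lists have medians of -1.91, -1.72, -0.76 and -0.71, and Serpina1e lies alone at 5.52.

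The genes that were higher in W/F were of other kinds. Serpina1e, a serine protease inhibitor of the alpha-1-antitrypsin family (chr12:103946931-103958975), was at 98.5, 61.9, 93.7 and 58.0 TPM in W/W and 1424, 1975, 7655 and 7138 TPM in W/F. The W/F libraries fell into a lower and a higher pair, all above W/W, and the log2 difference was 5.52 ± 0.57 (adjusted p = 2.25e-08). Of its exon sequence, 34.6% also occurs in other annotated genes, so the split of reads within the family is uncertain. Enho, which encodes the peptide adropin (chr4:41638144-41640324), had 25 recovered reads over the 4 W/W libraries and 617 over the 4 W/F libraries. Its level was 0.459, 0, 0.706 and 0.655 TPM in W/W and 7.88, 10.3, 13.2 and 15.7 TPM in W/F (log2 difference 3.12 ± 0.23, adjusted p = 1.36e-11). Slc22a7, an organic anion transporter (chr17:46432183-46438457), was at 4.50, 1.83, 3.85 and 3.17 TPM in W/W and 31.1, 18.5, 32.7 and 34.5 TPM in W/F. The difference was 2.80 ± 0.28 on the log2 scale (adjusted p = 7.61e-09). Nnmt, the nicotinamide methyltransferase (chr9:48591877-48605153), was at 19.1, 21.3, 22.3 and 14.9 TPM in W/W and 144.6, 196.9, 127.4 and 92.8 TPM in W/F. Its log2 difference was 2.76 ± 0.36 (adjusted p = 1.64e-06).

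Gstp1, a glutathione transferase (chr19:4035407-4037985), was at 770, 830, 702 and 647 TPM in W/W and 3071, 3093, 6077 and 4231 TPM in W/F, a log2 difference of 2.43 ± 0.22 (adjusted p = 1.44e-09). Its neighbour Gstp2 and the pseudogene Gstp-ps moved alike, with 54.3% and 71.1% of their exon sequence shared with other genes, so the 3 are not separate results. Cyp26a1, which breaks down retinoic acid, averaged 12.6 and 73.1 TPM, and Rdh16f2, annotated as a retinol dehydrogenase, 20.9 and 119.7 TPM. Ces1b, a carboxylesterase, averaged 14.7 and 76.5 TPM. The sulfotransferase gene Sult5a1, the lectin gene Clec2h and the noncoding C330002G04Rik complete the 15 largest rises together with Mup20 and Mup-ps19. Mup20, a major urinary protein (pheromone carrier) of male mice, was at 3558, 1431, 4020 and 3047 TPM in W/W and 9589, 6233, 17094 and 15683 TPM in W/F. Of its sequence 50.5% is shared with other genes.

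Mup20 and Serpina1e belong to the list of genes that are higher in male than in female mouse liver, and all animals were male. Of 18 tested genes of that list, 5 rose (Serpina1e, Mup20, Mup3, Egfr and Cyp2d9) and 2 fell (Cyp4a12a and Cyp4a12b), with a median of 0.52, where 3.65% of all genes were called higher and 6.23% lower. The call of Mup3 was lost after rescaling (adjusted p = 0.0511) and when 1 library was left out (largest adjusted p = 0.183). Cyp4a12a and Cyp4a12b share 48.9% and 49.4% of their exon sequence with other genes, so their 2 falls may not be separate results. Of 11 genes of the female-biased list, 3 fell (Cyp2a4, Cyp17a1 and Acot3) and 2 rose (Cyp3a16 and Cyp3a44, with means of 1.17 and 2.75 TPM in W/F), with a median of 0.12. Without W/F replicate 2 only Cyp3a44 passed as higher (adjusted p = 0.0545 for Cyp3a16), with a median of -0.04, and the count of 2 fell to 1 or 0 in 12 of the 19 alternative settings. Cyp2a4, a steroid hydroxylase (chr7:26307169-26315088), was at 75.5, 174.3, 87.7 and 55.3 TPM in W/W and 9.67, 10.1, 2.68 and 2.63 TPM in W/F, a log2 difference of -3.84 ± 0.51 (adjusted p = 2.01e-06). A share of 38.8% of its sequence is held in common with other genes. The next lists are to be read against the 3.65% of all genes called higher and 6.23% called lower. In the bile acid list 3 of 22 genes rose (Baat, Abcc3 and Slco1a4) and 1 fell (Abcc4). In the list of xenobiotic genes 2 of 19 rose (Nr1i3 and Gsta2), and neither passed without W/F replicate 2 (adjusted p of 0.0764 and 0.0889). Of their sequence 63.6% and 49.8% is shared with other genes. Of 13 hepatocyte genes, Apoa1, Apoh and Serpina1c were called higher and 0 lower. Without W/F replicate 2, 3 were called higher and 1 lower. Alb was not called, but it was the 1 member whose W/F values lay wholly below those of W/W, while 6 members lay wholly above. Of 14 stress genes, Xbp1 and Asns rose, calls that were lost in 6 and 12 of the 19 alternative settings tried.

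Other large falls were outside lipid synthesis as usually listed. Ly6d, a small surface protein (chr15:74762056-74763620), was at 122.6, 169.3, 126.2 and 62.2 TPM in W/W and 4.16, 32.1, 3.06 and 2.81 TPM in W/F. W/F replicate 2 was the high value, and the log2 difference was -3.99 ± 0.51 with it and -4.73 without it. Fabp5, a fatty acid binding protein (chr3:10012548-10016607), averaged 176.2 and 11.2 TPM (log2 difference -3.96 ± 0.36). The other genes among the 15 largest falls, with Mir6392, were the unnamed Gm32468, the glucuronosyltransferase gene Ugt1a5, the nicotinic receptor subunit Chrna4, the hepcidin paralog Hamp2, the fatty acid hydroxylase Cyp4a31 and H2-Q1 of the major histocompatibility complex. Ugt1a5 shares 64.0% of its exon sequence with the other genes of its cluster.

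In the lists of macrophages, inflammation and fibrosis the counts called were near or below the 9.88% of all genes, which in lists of this size is only a few genes. None of 22 monocyte, inflammation and chemokine genes, of 14 acute phase genes, of 26 fibrosis and stellate cell genes, of 9 neutrophil genes or of 8 lymphocyte genes passed. Of 16 genes of lipid-associated macrophages 2 fell (Fabp5 and Ctsd), and of 12 Kupffer cell genes 1 fell (Cd163). After rescaling 2 of the 26 fibrosis genes, 1 macrophage and 1 Kupffer cell gene were called higher. These lists were the ones in which W/F replicate 2 stood apart. The summed level of the monocyte list was 2732 TPM there, 214 to 327 TPM in the other W/F libraries and 173 to 507 TPM in W/W. The acute phase sum was 44101 TPM, against 15900 to 20118 TPM in the other W/F and 18334 to 19160 TPM in the W/W libraries. Gpnmb, a marker of lipid-laden macrophages, was at 1.00, 37.7, 0.931 and 1.74 TPM in W/F and 0.570, 2.76, 0.963 and 0.595 TPM in W/W. Ccl2, the monocyte chemokine, was at 0.855, 24.9, 0.951 and 0.585 TPM in W/F and 1.28, 4.09, 2.07 and 1.62 TPM in W/W. Col1a1, a collagen chain, was at 6.36, 27.5, 5.66 and 9.20 TPM in W/F and 9.77, 31.2, 17.4 and 7.63 TPM in W/W, so that replicate 2 was the highest in each genotype. Without W/F replicate 2, 3 of 26 fibrosis genes and 4 of 12 Kupffer cell genes were called lower, the list medians turned from 0.22 to -0.31 for lipid-associated macrophages and from 0.39 to -0.20 for monocytes and inflammation, and the log2 differences of Gpnmb and Ccl2 were 0.08 and -0.80 (adjusted p = 0.921 and 0.244). These values leave out the highest library of W/F only. W/W replicate 2 was kept, and it was the highest W/W library for the same sums. It had 1388 TPM for lipid-associated macrophages, against 1068 to 1146 TPM in the other W/W libraries. For monocytes it had 507 against 173 to 325 TPM, and for fibrosis 503 against 248 to 323 TPM. In bulk liver fewer cells of a type and less RNA per cell cannot be told apart.

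**Figure D4:**
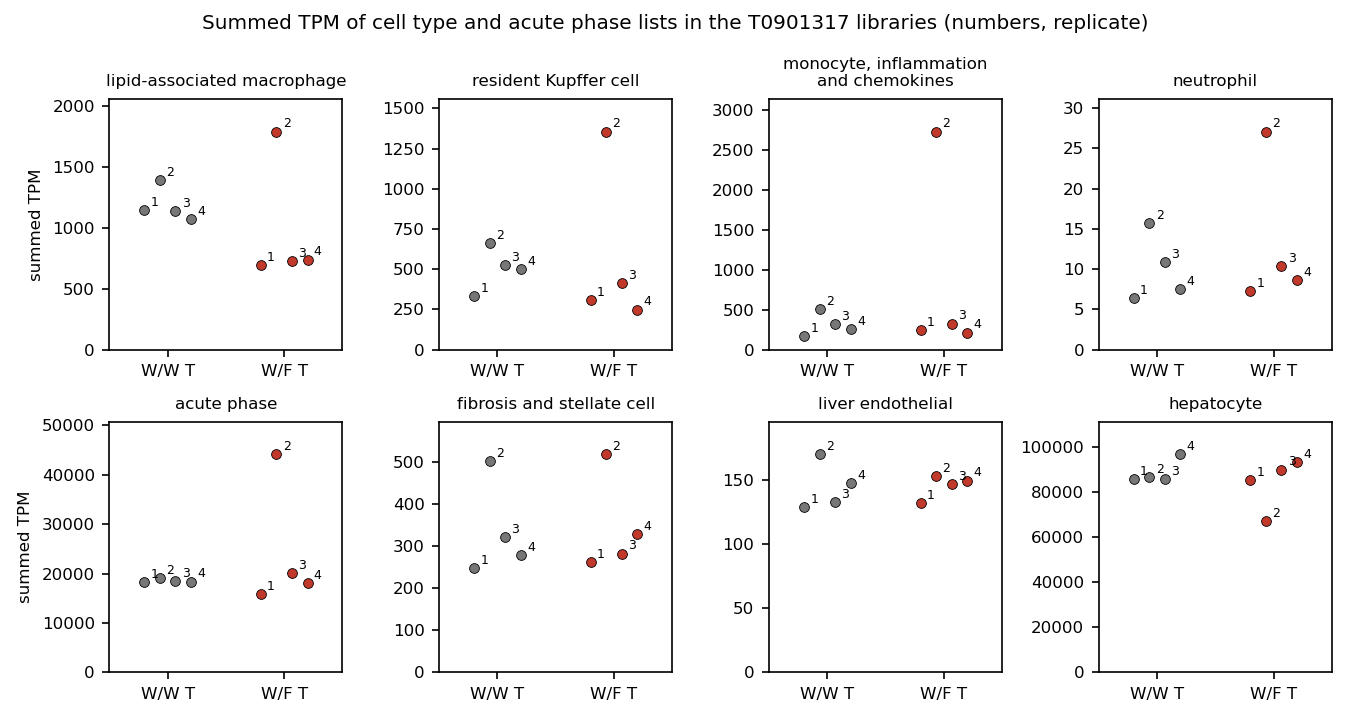
Summed TPM of 8 gene lists in each T0901317 library, W/W in grey and W/F in red, with replicate numbers. W/F replicate 2 is the highest W/F library in the macrophage, Kupffer, monocyte, neutrophil, acute phase, fibrosis and endothelial lists and the lowest in the hepatocyte list (67203 TPM against 85485 to 93392 in the other W/F libraries).

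The same genotype comparison with vehicle, made on other mice, gave a different pattern over all genes. There 11391 genes (68.5%) were called and 90.02% of them were higher in W/F, with a median log2 difference of 0.52 over all genes. Rescaling each library to its median gene moved that median to 0.02 and the result to 8830 genes, 52.3% of them higher. With T0901317 the same rescaling moved the median by 0.01. The difference of the 2 comparisons was tested as an interaction and was called for 9726 genes (58.5%), of which 9.02% were more positive with T0901317, or 7296 genes and 45.0% after rescaling. Of the 607 genes higher in W/F with T0901317, 49.1% were also higher with vehicle and 19.1% lower there, against 61.6% and 6.83% of all genes tested. With rescaling the shares were 22.3% and 41.8% of 849 genes, against 27.8% and 25.3% of all genes. Of the 1037 genes lower with T0901317, 20.3% were lower and 46.5% higher with vehicle, against 6.83% and 61.6% of all genes. After rescaling the shares were 39.5% and 22.5% of 1394 genes, against 25.3% and 27.8%. The shared genes made up 2.91% of the 10254 genes higher and 18.6% of the 1137 lower with vehicle, or 4.09% of 4619 and 13.1% of 4211 after rescaling. The order of these shares therefore changes with scaling.

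Scd1 and Fasn were lower in W/F in both settings. Scd1 averaged 513.5 TPM in W/F and 7896 TPM in W/W with vehicle (log2 difference -3.94), and the interaction was 0.41 (adjusted p = 0.407), which became 1.08 (adjusted p = 0.0384) after rescaling. Fasn averaged 16.5 and 169.1 TPM with vehicle (-2.99, limma interaction adjusted p = 0.321). With vehicle, 20 of 26 fatty acid and triglyceride genes were called lower in W/F and 2 higher, or 23 and 1 after rescaling. Of 28 PPAR-alpha target genes, 15 were lower and 2 higher, or 22 and 0 after rescaling. Over all genes 6.83% were lower and 61.6% higher with vehicle, or 25.3% and 27.8% after rescaling. Of the cholesterol genes, 19 of 25 had a more negative difference with T0901317 by the interaction test and 1 a more positive one, or 17 and 2 after rescaling. Over all 16638 genes these counts were 8849 and 877, or 4015 and 3281 after rescaling. With vehicle itself, 14 of the 25 cholesterol genes were called lower in W/F and 2 higher, or 20 and 0 after rescaling. Sqle was not among these 14. It averaged 2.87 TPM in W/F and 2.39 TPM in W/W with vehicle (log2 difference 0.20, limma adjusted p = 0.297). Its interaction was -3.78 (limma adjusted p = 2.43e-12). In W/W livers the Sqle level was thus 31.2 TPM with T0901317 and 2.39 TPM with vehicle, while in W/F it was 1.68 and 2.87 TPM. Srebf1, Abcg5 and Abcg8 went the other way, since W/F was further below W/W with vehicle (log2 differences of -2.57, -2.05 and -2.18) than with T0901317 (interactions of 1.79, 1.30 and 1.63, all passing under both scalings).

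Several genes were called in opposite directions in the 2 settings. Serpina1e averaged 376.4 TPM in W/F and 4035 TPM in W/W with vehicle, a log2 difference of -3.52, against 5.52 with T0901317 (interaction 9.04, adjusted p = 7.22e-10). Slc22a7 averaged 3.08 and 55.3 TPM with vehicle (-3.80, interaction 6.60). In both genes the W/F livers with T0901317 lay nearer to W/W livers with vehicle than W/W livers with T0901317 did. Ly6d averaged 597.1 TPM in W/F and 4.17 TPM in W/W with vehicle, a log2 difference of 6.78 (interaction -10.78, adjusted p = 5.31e-12). Cyp2a4, Fabp5 and Pltp were likewise higher in W/F with vehicle (4.88, 3.04 and 1.32) and lower with T0901317. Of the male-biased list, 0 genes were higher and 14 of 18 lower in W/F with vehicle, where 6.83% of all genes were lower. The interaction was positive for 16 of 18, or 17 after rescaling, against 877 and 3281 of all 16638 genes. All 26 fibrosis genes and all 16 genes of lipid-associated macrophages were higher in W/F with vehicle and had a negative interaction, the fibrosis genes in 24 cases after rescaling. Of all genes 61.6% were higher with vehicle, and 8849 of 16638 had a negative interaction, or 4015 after rescaling.

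**Figure D5:**
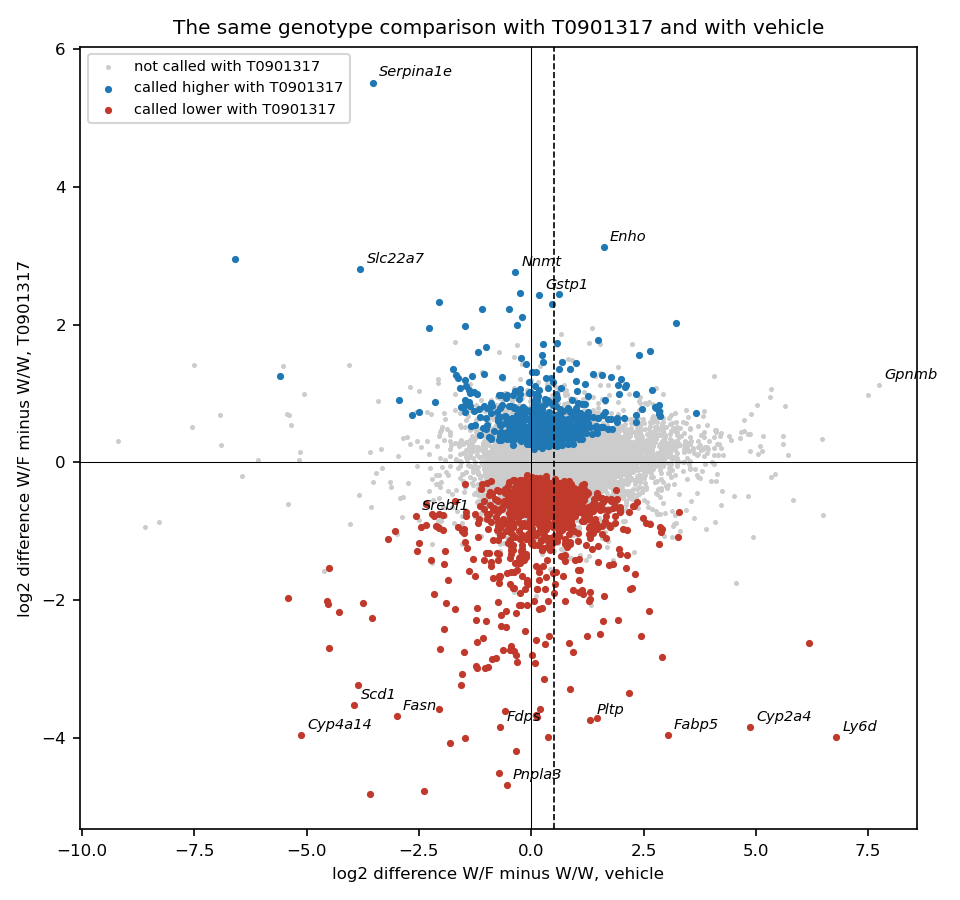
log2 difference W/F minus W/W of each tested gene with vehicle (horizontal) and with T0901317 (vertical), fitted on different mice; coloured points were called with T0901317 and the dashed line is the vehicle median of 0.52. Serpina1e and Slc22a7 are at upper left, Ly6d, Cyp2a4 and Fabp5 at lower right, and Scd1, Fasn and Cyp4a14 at lower left.

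On chow, in a separate cohort, 81 genes (0.487%) were called between W/F and W/W. Among them were 11 of the 25 cholesterol genes, all higher in W/F, opposite to their direction with T0901317. Sqle averaged 137.5 TPM in W/F and 69.2 TPM in W/W on chow (log2 difference 0.99, adjusted p = 0.00104), and Nsdhl 204.9 and 99.96 TPM (1.02, adjusted p = 0.000203). Scd1 was lower in W/F on chow too, at 38.3 against 3708 TPM. The F/F mice with T0901317 are compared with the same W/W mice, so the values are only set side by side. Scd1 averaged 582.7 TPM in F/F, 1900 TPM in W/F and 21770 TPM in W/W. Fdps was at 9.13, 8.04 and 127.8 TPM, and Sqle at 3.69, 1.68 and 31.2 TPM, in the same order. Gpnmb averaged 181.7 TPM in F/F with T0901317, and Ly6d 523.2 TPM.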

How the data were processed

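The authors deposited 1 table of TPM for 49315 genes in 36 liver libraries, with 4 replicates in each of 9 groups, and each column sums to 1000000. The submitters' processing notes name Trimmomatic 0.36, STAR 2.5.2b, featureCounts and Subread 1.5.2, with the builds GRCm38 and mm10. The annotation and strand setting are not given in the sources used here. The labels do not say that each library is 1 mouse, so p-values measure the spread between these libraries.

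From these values, log2(TPM + 1) was modelled (limma 3.58.1, R 4.3.3) as 9 group means over all 36 libraries, with a variance trend and Benjamini-Hochberg adjustment over 16638 genes, those reaching 1 TPM in 4 or more libraries. A fold change on this scale understates that of low genes. SE is that of the fit. Reads were recovered from TPM steps and GENCODE M21 (GRCm38) exon lengths: 93.7 to 95.7% of values were whole within 0.1, for about 18064100 to 35806000 reads a library. In the rescaled values TPM was divided by median-of-ratios factors. Shared sequence is the percent of 50-base stretches found in another gene. The fit was tested on simulated data.

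Named genes were the 15 largest differences in each direction among called, non-overlapping genes with a mean of at least 5 TPM, 16 fixed genes and up to 4 called members of each of 23 lists. Genes named beyond these were chosen after their values were seen. The comparison, the genes and the lists were chosen with earlier results of these data known. Replicate numbers were not treated as pairs, because the labels do not say that a number marks a litter or day. The deviations of same-numbered libraries correlated at 0.0518 to 0.297, and those of differently numbered ones at -0.255 to 0.126. Some genes are not reported here.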

Additional observations from a re-analysis of the deposited data

Results flagged for a closer look

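Of 140 sets of 4 libraries checked, 22 held a library lying far from its group, where the 95% limit used lets about 1 in 20 pass by chance, and 12 of the 22 were W/F replicate 2. In that library Ly6d was at 32.1, Pltp at 35.0, Abcg1 at 31.8, Gpnmb at 37.7, Ccl2 at 24.9 and Col1a1 at 27.5 TPM. Its summed levels were 1787 TPM for the lipid-associated macrophage list, 1356 for Kupffer cells, 2732 for monocytes and inflammation, 27.1 for neutrophils, 25.3 for lymphocytes and 44101 for the acute phase. W/F replicate 1 stood apart for Cyp4a14 (231.7 TPM), Fasn (94.7 TPM) and the summed LXR, RXR and cofactor list (369.6 TPM). W/F replicate 3 stood apart for Mir6392 (2.00 TPM) and W/F replicate 4 for the cholesterol sum (841.2 TPM). Among W/W libraries the sums apart were those of LXR targets in replicate 3 (55563 TPM), xenobiotic genes and the acute phase in replicate 2 (17804 and 19160 TPM), hepatocyte genes in replicate 4 (96926 TPM) and fat, pancreas, muscle and blood in replicate 1 (720.2 TPM).

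For 38 of 45 named genes the genotype difference with T0901317 differed from that with vehicle by the limma interaction test, against 58.5% of all genes tested. The 45 include the 15 largest T0901317 differences in each direction. That difference is a part of the interaction, so the count is raised by the choice of genes and is not separate support. The log2 difference with T0901317 minus that with vehicle was negative for Ugt1a5 (-2.39), Pnpla3 (-4.14), Mir6392 (-3.80), Chrna4 (-3.84), Acacb (-2.27), Ly6d (-10.78), Cyp4a31 (-4.36) and Fabp5 (-7.00). It was also negative for Fdps (-3.15), Cyp2a4 (-8.72), Pltp (-5.06), H2-Q1 (-5.18), Abcg1 (-2.67), Gpnmb (-6.61), Ccl2 (-4.70) and Col1a1 (-5.30). It was positive for Sult5a1 (3.46), Mup20 (2.31), Gstp-ps (2.32), Mup-ps19 (2.71), C330002G04Rik (3.31), Ces1b (1.83), Clec2h (4.38) and Gstp1 (2.26). The remaining positive values were those of Cyp26a1 (1.82), Rdh16f2 (2.72), Nnmt (3.12), Slc22a7 (6.60), Enho (1.51), Serpina1e (9.04), Abcg5 (1.30), Abcg8 (1.63) and Srebf1 (1.79). It was negative as well for Nr1h2 (-0.60), Abca1 (-0.95), Mylip (-1.08), Gm32468 (-1.23) and Hamp2 (-2.54), and these 5 lost the call when each library was rescaled to its median gene.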

How the results depend on the processing

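The 66 genes named by the rule and called kept their direction under every alternative tried and their call in 1180 of 1252 values. Calls were lost in 72 values, among 15 genes: Abcc3, Abcc4, Abcg5, Apoa1, Apoh, Asns, Clec2h, Ctsd, Cyp2d9, Gsta2, Hba-a1, Hbb-bs, Nr1i3, Srebf1 and Xbp1; the cause was not tested. Of genes named beyond the rule, Cpt1a, Cyp3a16 and Mup3 lost the call with a library left out. The count of 1644 genes became 2920 with array quality weights, and lay between 1187 and 1538 when each library was left out in turn. Of the calls, those upward made up 58.1% with recovered reads and voom, and 29.1% to 49.3% with a library left out. The 330 genes with a 2-fold difference became 528 with a pseudocount of 0.1, 570 with voom and 571 with voom on rescaled libraries, and 314 to 364 with a library left out. Rescaling without W/F replicate 2 and rescaled voom were chosen after seeing the data. The replicate block gave 1737 genes (36.04% higher), 11418 with vehicle and 9763 for the interaction, and 5 of 8 libraries correlated best with their own number. Of the 10 named genes not called, Abcg1 passed without W/F replicate 2. Ccl2 (0.17) changed sign to -0.081 with a pseudocount of 0.1, -0.41 with array weights and -0.82 with rescaling without W/F replicate 2, and ranged from -0.80 to 0.55 with a library left out. Cyp7a1 ranged from -0.39 to 0.16 and Mylip from -0.029 to 0.20. The difference in the share of the top 100 genes ranged from -0.88 to 1.38 percentage points and that in genes of at least 1 TPM from -266.3 to 103. Depth limits the low genes: Enho had 25 recovered reads in W/W.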

Other observations

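Around Nr1h3 on chromosome 2, 5 of the 40 tested genes within 1 Mb were called with T0901317, 7 of 64 within 5 Mb and 9 of 95 within 10 Mb, where 9.88% of all tested genes were called, and 0 were called on chow. Of 10 cholangiocyte genes 1 was called lower in W/F, Krt23, with a log2 difference of -3.14. Krt23, a keratin, was at 40.2, 52.9, 45.5 and 35.8 TPM in W/W and 4.92, 1.90, 4.98 and 5.10 TPM in W/F. The other 9 did not pass, and the list median was 0.14, with 2 of 10 members estimated lower. Of 14 cell cycle genes Ccnd1 was called lower (-1.09), where 6.23% of all genes were. All 14 were higher in W/F with vehicle, as were 61.6% of all genes. Of 14 genes of the circadian clock and 11 of liver endothelium, 0 were called with T0901317. Of 6 tested genes of fat, pancreas, muscle and blood, Fabp4 (-1.84), Hba-a1 (-0.77) and Hbb-bs (-0.86) were lower in W/F. The haemoglobin genes Hba-a1 and Hbb-bs lost the call without W/F replicate 2 (limma adjusted p = 0.0766 and 0.0769) and without W/W replicate 1 (limma adjusted p = 0.196 and 0.144), which was the highest W/W library at 303.9 and 316.4 TPM.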
